A study of Mus musculus with 9 samples.

Results

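Small nucleolar RNA host genes are genes whose introns carry small nucleolar RNAs (snoRNAs), and the 7 described here are Gas5, Snhg1, Snhg3, Snhg5, Snhg6, Snhg8 and Snhg12. They were taken from a deposited table of 27179 mouse genes by matching Entrez identifiers to these symbols, and all 7 had a row. RNA came from HPC7 cells, a mouse blood progenitor line grown in RPMI medium with 10% calf serum, mouse stem cell factor (100 ng/ml) and 2-mercaptoethanol (0.05 mM). Each of the 3 groups had 3 libraries: cells given mutant Snai1, cells given wild-type Snai1, and cells given an empty vector. All cells carried an MSCV-IRES-GFP retrovirus, in which a viral promoter drives the insert together with a green fluorescent marker, and were sorted on fluorescence 1 week after transduction. In the mutant, alanine takes the place of phenylalanine at residue 5 of Snai1, and the labels state that this weakens binding to the histone demethylase Lsd1 (gene Kdm1a). The comparisons therefore set these transcripts side by side in cells given Snai1, a zinc-finger repressor, a form labelled as weaker in Lsd1 binding, or neither. Binding to Lsd1 and Snai1 protein were not measured in these libraries. The labels do not say that replicates came from separate transductions, so the p-values measure only the spread between these libraries.

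After splicing, the released intron of a host gene is trimmed to the snoRNA, which guides chemical modification or cleavage of ribosomal RNA. Box C/D snoRNAs guide methylation of the ribose, and H/ACA snoRNAs guide the change of uridine to pseudouridine. The spliced host RNA itself often has little coding capacity. Several of these RNAs start with a run of pyrimidines, the terminal oligopyrimidine (TOP) start that ribosomal protein mRNAs also have, and are broken down by nonsense-mediated decay when they are translated. The level of a spliced host RNA in growing cells thus reflects both its synthesis and its decay, and poly(A)-selected libraries such as these record the spliced host far better than the snoRNA.

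The libraries held between 18332451 and 20860314 counts. Snai1 averaged 460 ± 40.2 in counts-per-million units (CPM) in mutant-Snai1 cells, 492 ± 68.5 CPM in wild-type-Snai1 cells and 0.828 ± 0.205 CPM in empty-vector cells (SD, n = 3 each), where reads of the vector and of the cell's own gene are counted together. Snai1 did not pass the edgeR quasi-likelihood test between the mutant and wild-type groups (log2 fold change -0.10, SE 0.11; adjusted p = 0.479). Kdm1a averaged 199 ± 2.00 CPM in mutant-Snai1 cells, 201 ± 7.55 CPM in wild-type-Snai1 cells and 201 ± 1.21 CPM in empty-vector cells (SD, n = 3 each), with adjusted p between 0.736 and 0.999 in the same fit. The 10 blood progenitor markers summed to between 8444 and 8752 CPM in mutant-Snai1 cells, 8414 and 10131 CPM in wild-type-Snai1 cells and 8517 and 8788 CPM in empty-vector cells, with none of them at 0. Of these 10 markers 2 were called higher and 4 lower in wild-type-Snai1 against empty-vector cells, with log2 fold changes between -0.95 and 1.01. Of all tested genes 25.2% were called higher and 24.3% lower in that comparison, 49.4% in all. A pair of libraries stood apart: empty-vector replicate 1, where 1 gene without a symbol took 3.62% of counts against 0.101% to 0.280% elsewhere, and wild-type replicate 1, which separated from its group on the second principal component (8.85% of variance). The host genes, the lists and the snoRNA rows were therefore also fitted without both of them, a setting chosen after seeing the data.

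The annotated loci show how the snoRNAs sit within these genes. RefSeq places 26 snoRNAs within the 7 spans on GRCm38, the assembly behind the mm10 build the authors used, and all 26 lie inside introns of the GENCODE transcript with the most exons. Gas5 (chr1:161034601-161038539, plus strand) has 12 exons and 8 snoRNAs, and Snhg1 (chr19:8723487-8726326, plus strand) has 10 exons and 8 snoRNAs, among them Snord22. Snhg5 (chr9:88521052-88522897, minus strand) has 6 exons and 2 snoRNAs. Snhg6 (chr1:9942025-9944118, minus strand) has 4 exons around Snord87, and Snhg8 (chr3:123507552-123508336, minus strand) has 3 exons around Snora24. Snhg12 (chr4:132308678-132311024, plus strand) has 5 exons and carries Snora16a, Snora44, Snora61 and Snord99. Snhg3 (chr4:132351933-132353686, minus strand) carries Snora73a and Snora73b. Only 10 of the 26 snoRNAs had a row of their own in the table.

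**Figure D1:**
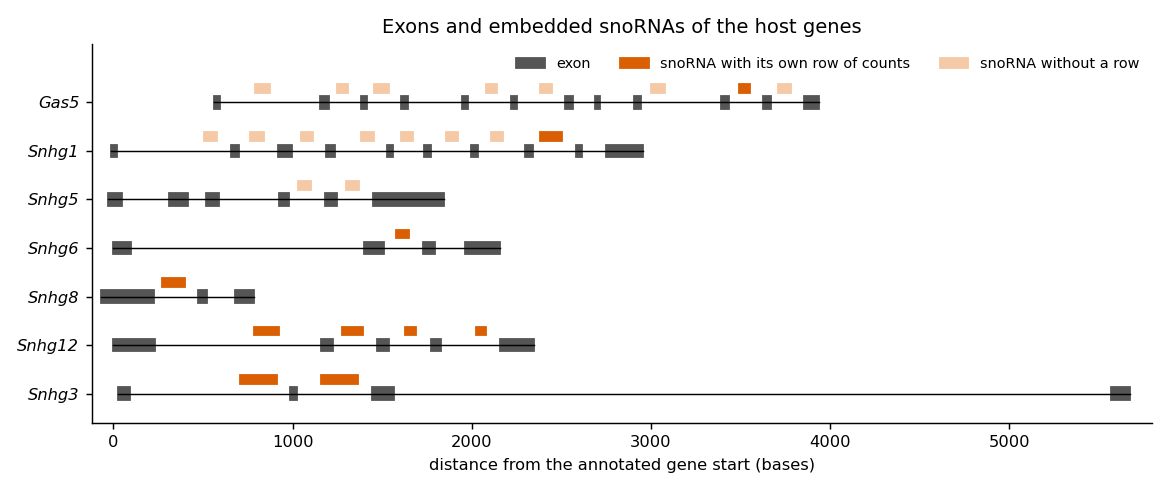
Exons (grey) and snoRNAs (orange, drawn above) of the 7 host genes along the distance in bases from each gene's annotated start, with the start on the left whichever strand the gene is on. Dark orange marks the 10 snoRNAs with a row of counts, all 26 fall between exons, and Gas5 and Snhg1 hold 8 each.

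Because a pyrimidine run at the start is the feature by which TOP RNAs are recognised, the 60 bases around each annotated start are shown. The sequences run from 40 bases before the start to the 20th base of the transcript, 5′ to 3′ on the gene's strand, and come from RefSeq on GRCm38.p6. Capitals mark the longest pyrimidine run that touches the window from 5 bases before to 5 bases after the start. RefSeq promoters were matched for 6 of the 7 genes, with 2 starts for Gas5, and Snhg6 was not matched.
Snhg1, chr19:8723447-8723506, plus strand: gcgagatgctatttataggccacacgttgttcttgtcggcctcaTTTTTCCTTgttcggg
Snhg12, chr4:132308638-132308697, plus strand: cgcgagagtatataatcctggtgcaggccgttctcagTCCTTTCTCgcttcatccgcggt
Snhg8, chr3:123508317-123508376, minus strand: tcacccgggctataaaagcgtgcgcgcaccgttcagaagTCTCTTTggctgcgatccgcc
Gas5, second start, chr1:161035126-161035185, plus strand: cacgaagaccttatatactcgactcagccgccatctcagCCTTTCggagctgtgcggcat
Snhg3, chr4:132353667-132353726, minus strand: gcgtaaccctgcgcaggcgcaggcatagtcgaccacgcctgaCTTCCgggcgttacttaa
Snhg5, chr9:88522878-88522937, minus strand: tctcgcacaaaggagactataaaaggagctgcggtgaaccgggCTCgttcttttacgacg
Gas5, first start, chr1:161034561-161034620, plus strand: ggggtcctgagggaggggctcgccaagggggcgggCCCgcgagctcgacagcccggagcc

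The run was 9 bases long in Snhg1 and in Snhg12, a length reached or passed by 6.65% of the 32851 mouse promoters searched the same way. It was 7 bases in Snhg8, 6 at the second Gas5 start, 5 in Snhg3 and 3 at the remaining starts, where the median over all promoters was 3. In Snhg5 another run of 7 bases begins just after the window and was not counted. These lengths depend on the start used: the GENCODE transcripts drawn above begin at -32 bases from it in Snhg5, -68 in Snhg8, -12 in Snhg1 and 23 in Snhg3. The letters TATAA, searched on both strands of the 300 bases from 250 before to 50 after the start, were present at 6 of 7 starts, against 24.9% of all promoters. On the gene's own strand, between 45 and 15 bases before the start, TATAA stood at 3 of 7 starts (Snhg5, Snhg8 and Snhg12), against 3.93% of all promoters. These matches describe the letters of the window only. The Snhg12 start, whose gene moved against the others below, shares its run length with Snhg1 but not the place of the run. It began 3 bases before the annotated start in Snhg12 and at base 5 of the transcript in Snhg1.

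Snai1 is known to bind the letters CAGGTG, so these were searched on both strands of the same 300 bases. They were found at 2 of 7 starts, against 20.2% of all 32851 promoters: 69 bases before the Snhg12 start and 146 bases before the first Gas5 start. CACGTG, the letters bound by Myc, was found at 0 of 7 starts, against 7.15% of all promoters, so no CAGGTG match overlaps one. The 12-exon Gas5 transcript drawn above begins 562 bases from the first start, beside the second start, which had 0 CAGGTG matches. The 2 promoters with CAGGTG, in capitals, are those of a gene that was higher and of a gene that was lower in wild-type-Snai1 cells.
Snhg12, chr4:132308428-132308727, plus strand: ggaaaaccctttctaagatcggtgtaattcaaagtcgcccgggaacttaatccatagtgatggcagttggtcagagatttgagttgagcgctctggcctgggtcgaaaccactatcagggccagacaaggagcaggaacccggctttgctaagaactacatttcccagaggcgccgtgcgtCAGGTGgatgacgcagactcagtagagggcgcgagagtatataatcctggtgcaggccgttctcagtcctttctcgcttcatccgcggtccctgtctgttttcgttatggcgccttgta
Gas5, first start, chr1:161034351-161034650, plus strand: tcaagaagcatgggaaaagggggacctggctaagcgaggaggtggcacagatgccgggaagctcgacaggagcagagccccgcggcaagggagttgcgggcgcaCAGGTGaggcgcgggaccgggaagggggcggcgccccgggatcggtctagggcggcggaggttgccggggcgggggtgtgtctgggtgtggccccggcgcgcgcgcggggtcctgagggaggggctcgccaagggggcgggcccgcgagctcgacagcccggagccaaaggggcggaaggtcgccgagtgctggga

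Levels differed widely among the 7 genes. Per length, in transcripts-per-million units (TPM, from the lengths in the deposited table), Snhg1 and Gas5 were the highest in every group and their libraries overlapped. In mutant-Snai1 cells Snhg1 stood at 663 ± 62.8 TPM and Gas5 at 611 ± 61.1 TPM, in wild-type-Snai1 cells they stood at 432 ± 7.39 and 424 ± 33.3 TPM, and in empty-vector cells at 629 ± 31.0 and 608 ± 22.4 TPM (SD, n = 3 each). Snhg6 came next in each group, at 243 ± 14.8 TPM in mutant-Snai1 cells, 161 ± 13.01 TPM in wild-type-Snai1 cells and 253 ± 13.3 TPM in empty-vector cells.

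Snhg5 and Snhg8 followed, and their libraries overlapped in wild-type-Snai1 cells (122 ± 18.04 and 128 ± 10.5 TPM) and in empty-vector cells (217 ± 24.8 and 194 ± 11.5 TPM). In mutant-Snai1 cells Snhg5, at 198 ± 5.99 TPM, lay above Snhg8, at 178 ± 7.15 TPM, in every library. Snhg12 was sixth, at 70.5 ± 4.88 TPM in mutant-Snai1 cells, 91.0 ± 9.61 TPM in wild-type-Snai1 cells and 72.0 ± 10.96 TPM in empty-vector cells. Snhg3 was last, below 2 TPM in every library. These TPM levels depend on the counted length, which was 2554 bases for Gas5 and 785 bases, its whole span, for Snhg8, more than the exons of the spliced transcripts drawn above.

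Together the 7 genes took 0.0920%, 0.0990% and 0.105% of counts in the mutant-Snai1 libraries, 0.0694%, 0.0669% and 0.0643% in the wild-type-Snai1 libraries, and 0.0972%, 0.101% and 0.0976% in the empty-vector libraries. All 3 wild-type libraries lay below the other 6. Gas5 alone made up between 63.8% and 68.9% of these counts in every library, so the sum follows Gas5 more than any other member.

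In wild-type-Snai1 cells against empty-vector cells, 5 of the 6 host genes with enough counts to test fell and 1 rose. Gas5, Snhg1, Snhg5, Snhg6 and Snhg8 were lower, by log2 fold changes of -0.50 to -0.81, and Snhg12 was higher by 0.36. Calls were made at an adjusted p under 0.05 with edgeR's quasi-likelihood test over 12484 genes, and in this comparison 24.3% of all tested genes were called lower and 25.2% higher, 49.4% in all. The median log2 fold change was -0.55 over the 6 members and -0.00 over all tested genes, of which the middle 50% lay between -0.30 and 0.27. The members, like the lists below, were chosen with earlier results of these data known, and they were not tested as a set. In the same 5 genes all wild-type libraries lay below all empty-vector libraries, and in Snhg12 all lay above, where 28.5% and 28.1% of all tested genes did so. All 6 also had an unadjusted p under 0.05, as did 55.5% of all tested genes. In bulk RNA, fewer cells with a transcript and less of it per cell cannot be told apart.

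**Figure D2:**
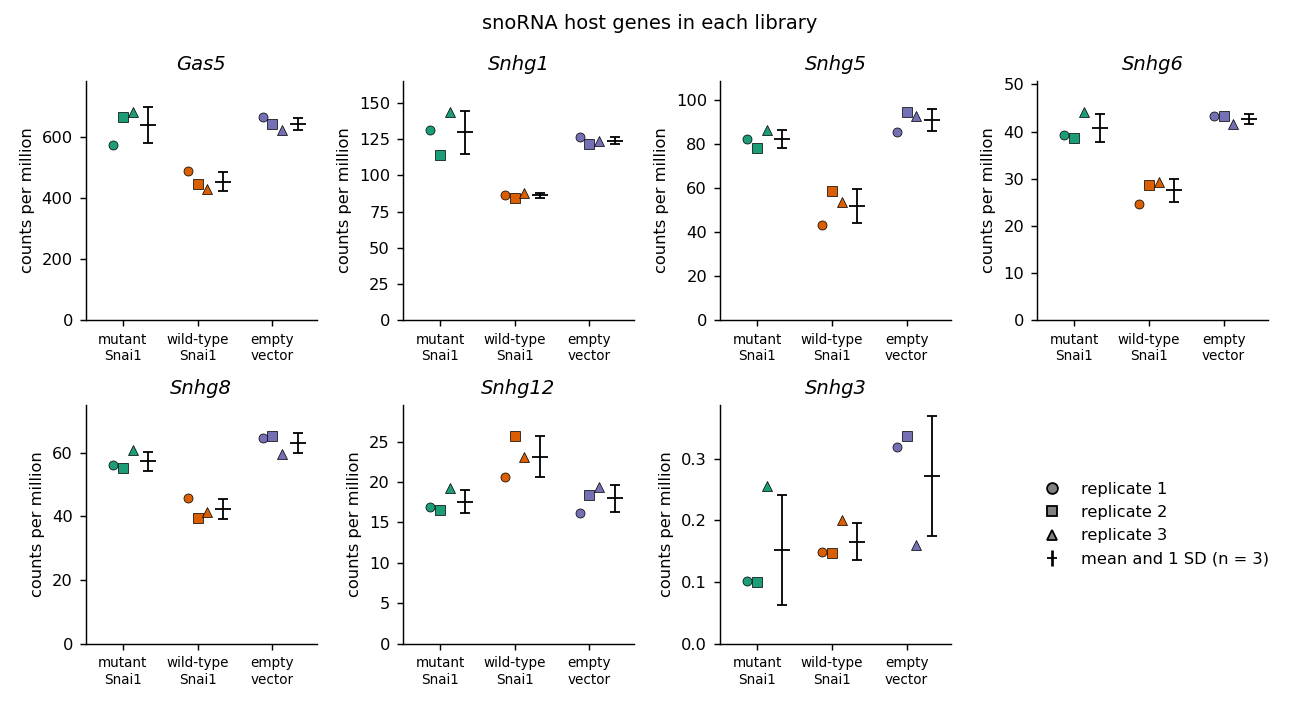
CPM of each of the 7 host genes in every library, with the mean and 1 SD of each group (n = 3) beside the points; each panel has its own axis from 0. The wild-type-Snai1 points sit below both other groups in Gas5, Snhg1, Snhg5, Snhg6 and Snhg8 and above them in Snhg12.

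Gas5, first found as a transcript that accumulates when cells stop growing, is the most counted member and hosts box C/D snoRNAs. It stood at 574, 665 and 682 CPM in mutant-Snai1 cells, 488, 446 and 429 CPM in wild-type-Snai1 cells, and 665, 642 and 623 CPM in empty-vector cells. Every wild-type library was below every library of both other groups, which overlapped with each other. Against empty-vector cells, wild-type-Snai1 cells had a log2 fold change of -0.50 (SE 0.08; edgeR adjusted p = 0.000329; lower in 3 of 3 libraries), a fold of 0.706, and it was -0.54 without both libraries that stood apart.

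Snhg1 hosts Snord22 (U22), a C/D snoRNA needed for ribosomal RNA processing in Xenopus, together with 7 others. Its level was 132, 114 and 144 CPM in mutant-Snai1 cells, 86.2, 84.3 and 88.1 CPM in wild-type-Snai1 cells, and 127, 122 and 124 CPM in empty-vector cells. The wild-type libraries formed a narrow band below the rest, while the mutant libraries spread around the empty-vector ones. The log2 fold change of wild-type-Snai1 over empty-vector cells was -0.53 (SE 0.08; edgeR adjusted p = 0.000281), a fold of 0.694, and it was -0.52 without both libraries that stood apart.

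Snhg5, whose human counterpart hosts the C/D snoRNA U50, had the largest change of the 6. It stood at 82.1, 78.0 and 86.1 CPM in mutant-Snai1 cells, 43.0, 58.6 and 53.5 CPM in wild-type-Snai1 cells, and 85.2, 94.3 and 92.6 CPM in empty-vector cells. All wild-type libraries were low and replicate 1 was the lowest of them. The fitted log2 fold change of wild-type-Snai1 over empty-vector cells was -0.81 (SE 0.10; edgeR adjusted p = 0.000104), a fold of 0.570, and it was -0.69 without wild-type replicate 1 and -0.75 without both libraries that stood apart.

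Snhg6, the host of the C/D snoRNA Snord87, had 39.3, 38.6 and 44.1 CPM in mutant-Snai1 cells, 24.7, 28.7 and 29.2 CPM in wild-type-Snai1 cells, and 43.4, 43.2 and 41.5 CPM in empty-vector cells. The wild-type libraries were again the 3 lowest of the 9. The log2 fold change of wild-type-Snai1 over empty-vector cells was -0.63 (SE 0.08; edgeR adjusted p = 0.000145), a fold of 0.645, and it was -0.56 without both libraries that stood apart.

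Snhg8, the host of the H/ACA snoRNA Snora24, had 56.1, 55.0 and 60.7 CPM in mutant-Snai1 cells, 45.7, 39.6 and 41.5 CPM in wild-type-Snai1 cells, and 64.7, 65.3 and 59.5 CPM in empty-vector cells. The wild-type libraries were below all others, and the mutant libraries overlapped only the lowest empty-vector library. The log2 fold change of wild-type-Snai1 over empty-vector cells was -0.58 (SE 0.07; edgeR adjusted p = 0.000118), a fold of 0.669, and it was -0.63 without both libraries that stood apart.

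Snhg12 carries 3 H/ACA snoRNAs and 1 C/D snoRNA and moved the other way. It had 16.9, 16.6 and 19.2 CPM in mutant-Snai1 cells, 20.7, 25.7 and 23.1 CPM in wild-type-Snai1 cells, and 16.2, 18.4 and 19.4 CPM in empty-vector cells. The wild-type libraries were the 3 highest, although the lowest of them stood close to the highest empty-vector library. The log2 fold change of wild-type-Snai1 over empty-vector cells was 0.36 (SE 0.11; edgeR adjusted p = 0.0182), a fold of 1.29. Over 17 alternative settings its adjusted p ran between 0.00108 and 0.0815, and the call was lost without wild-type replicate 2 (log2 fold change 0.28, edgeR adjusted p = 0.0706) and without empty-vector replicate 1 (0.28, edgeR adjusted p = 0.0815). Without both libraries that stood apart it was 0.36 (edgeR adjusted p = 0.00672).

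Snhg3, the host of the U17 snoRNAs that take part in cleavage of ribosomal RNA, was barely detected and did not enter the test. It had 2, 2 and 5 counts in the mutant-Snai1 libraries, 3, 3 and 4 counts in the wild-type-Snai1 libraries, and 6, 7 and 3 counts in the empty-vector libraries. The groups overlapped, and a difference of the size seen in the other members was not detectable at this depth: in a fit without the filter on low counts the log2 fold change of wild-type-Snai1 over empty-vector cells was -0.72 with an SE of 0.57 (edgeR adjusted p = 0.375).

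Mutant-Snai1 cells differed from wild-type-Snai1 cells in the same 6 genes, with the signs turned. Gas5, Snhg1, Snhg5, Snhg6 and Snhg8 were higher in the mutant group and Snhg12 was lower, where 23.4% of all tested genes were called higher and 24.5% lower, 47.9% in all. Their median log2 fold change was 0.53, against 0.01 over all tested genes, and the libraries of both groups did not overlap in any of the 6, where 28.3% of all tested genes had every mutant library above and 27.5% every mutant library below. All 6 had an unadjusted p under 0.05, as did 54.2% of all tested genes. This comparison shares its wild-type libraries with the one above, so both sets of values rest in part on the same samples.

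The mutant over wild-type difference was 0.67 (SE 0.10) in Snhg5, 0.59 (SE 0.08) in Snhg1, 0.56 (SE 0.08) in Snhg6, 0.49 (SE 0.08) in Gas5 and 0.44 (SE 0.07) in Snhg8 on the log2 scale. Their edgeR adjusted p lay between 0.000136 for Snhg1 and 0.000755 for Snhg8, and each was higher in 3 of 3 mutant libraries. Snhg12 was lower by -0.40 (SE 0.11; edgeR adjusted p = 0.012). Without mutant replicate 2 the Snhg12 value was -0.36 with an edgeR adjusted p of 0.05, no longer under the threshold, and over 17 alternatives that p ran between 0.000444 and 0.05. With both libraries that stood apart left out the values were 0.56 in Snhg5, 0.60 in Snhg1, 0.50 in Snhg6, 0.56 in Gas5, 0.51 in Snhg8 and -0.46 in Snhg12, all still called.

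Mutant-Snai1 cells against empty-vector cells gave 0 calls among the 6 tested host genes by edgeR and 0 by DESeq2, and 0 at an unadjusted p under 0.05. In this comparison 0.00801% of all tested genes were called by edgeR, which is Snai1 alone, and 4.83% had an unadjusted p under 0.05. All 3 mutant libraries were above all empty-vector libraries in 0 members and below them in 0 members, where 8.53% and 9.04% of all tested genes did so. The median log2 fold change was -0.05 over the 6 members and -0.00 over all tested genes. A p that misses the threshold does not show equal levels, and the 95% intervals of the log2 fold change bound what may have been missed. They ran between -0.17 and 0.16 in Gas5, -0.10 and 0.23 in Snhg1, -0.37 and 0.08 in Snhg5, -0.25 and 0.11 in Snhg6, -0.30 and 0.02 in Snhg8, and -0.28 and 0.21 in Snhg12. Each interval excludes the fold change estimated for wild-type Snai1 over empty vector in the same gene. In Snhg12, however, the 95% interval of that estimate ran between 0.12 and 0.60 and overlaps the mutant interval.

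**Figure D3:**
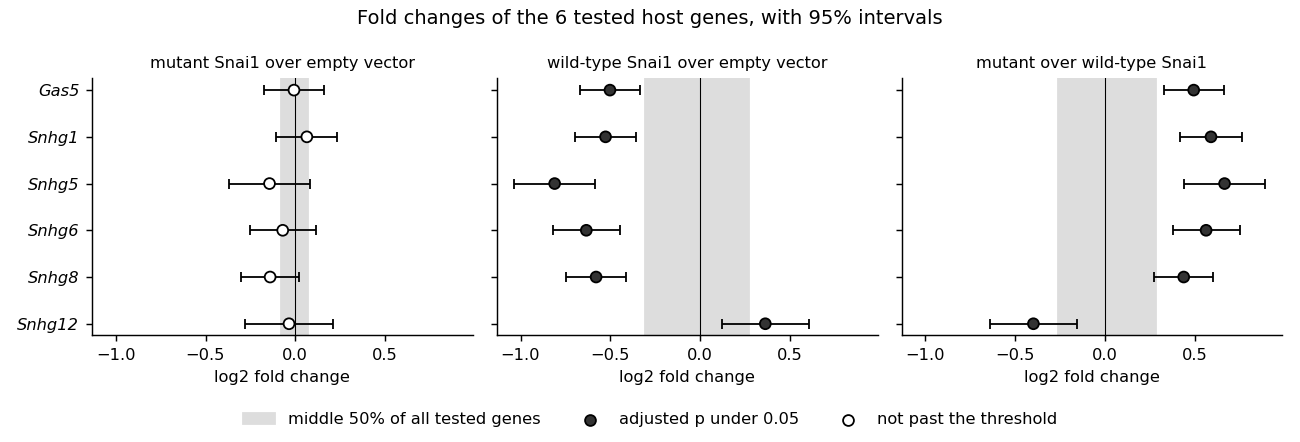
Log2 fold changes of the 6 tested host genes with 95% intervals in the 3 comparisons, with the middle 50% of all 12484 tested genes in grey; filled points have an edgeR adjusted p under 0.05. With wild-type Snai1, 5 genes lie left of the grey band and Snhg12 right of it, and mutant against empty vector holds no filled point.

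The opposite courses of Snhg12 and Gas5 were compared within each library, where the scaling between libraries drops out. For every 100 Gas5 counts there were 2.95, 2.49 and 2.82 Snhg12 counts in the mutant-Snai1 libraries, 4.24, 5.77 and 5.37 in the wild-type-Snai1 libraries, and 2.43, 2.87 and 3.11 in the empty-vector libraries. Every wild-type library was above all 6 others. The mean ratio was 5.12 ± 0.794 in wild-type-Snai1 cells and 2.80 ± 0.343 in empty-vector cells (SD, n = 3 each). This pair was set side by side because its courses were known to be opposite, so the ratio restates the values above and carries no test.

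The snoRNA rows of the table were read beside their hosts. A read in such a row can come from the mature snoRNA or from unspliced host RNA, and poly(A) selection keeps little of the first, so these counts are low and their origin is not known. Of 123 deposited snoRNA rows, 21 were at 0 in every library and 65 were tested. In wild-type-Snai1 against empty-vector cells 1 was called higher and 1 lower, where 25.2% and 24.3% of all tested genes were. The median log2 fold change of the 65 rows was -0.05. The higher one was Snora61, which lies in an intron of Snhg12, and the lower one was Snora43. In mutant-Snai1 against wild-type-Snai1 cells Snord49a, Snord69 and Snora43 were called higher and Snora61 lower, where 23.4% and 24.5% of all tested genes were. Snord49a was lost without both libraries that stood apart (log2 fold change 0.53, edgeR adjusted p = 0.069). In mutant-Snai1 against empty-vector cells 0 rows were called by edgeR and 1 had an unadjusted p under 0.05, beside 0.00801% and 4.83% of all tested genes.

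Snora61 had 28, 33 and 27 counts in the mutant-Snai1 libraries, 38, 79 and 64 in the wild-type-Snai1 libraries, and 23, 29 and 32 in the empty-vector libraries. All wild-type libraries were the highest, with replicate 1 nearest to the others. The log2 fold change of wild-type-Snai1 over empty-vector cells was 1.05 (SE 0.27; edgeR adjusted p = 0.00887), and that of mutant-Snai1 over wild-type-Snai1 cells was -1.01 (SE 0.27; edgeR adjusted p = 0.0109). With both libraries that stood apart left out they were 1.18 (edgeR adjusted p = 0.000435) and -1.24 (edgeR adjusted p = 9.89e-05). The other snoRNAs of Snhg12 did not pass the test, with log2 fold changes of wild-type-Snai1 over empty-vector cells of 0.78 (SE 0.43) in Snora16a, 0.62 (SE 0.47) in Snora44 and 0.80 (SE 0.47) in Snord99. Of the 3 wild-type libraries, replicate 1 had the lowest CPM of each of the 4 rows, though for Snora61 it was still above every library of both other groups. Together the 4 rows made 15.7, 30.7 and 28.7 counts per 100 Snhg12 counts in the wild-type-Snai1 libraries, against 14.8, 18.02 and 19.4 in the empty-vector libraries, which overlap.

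None of the snoRNA rows in the genes that fell passed the test in that comparison. Snord22 in Snhg1 had a log2 fold change of -0.22 (SE 0.19), Snord47 in Gas5 one of -0.03 (SE 0.22) and Snord87 in Snhg6 one of -0.16 (SE 0.30), with edgeR adjusted p between 0.374 and 0.909. With both libraries that stood apart left out the values were -0.05, 0.25 and 0.08, still not called and with the sign turned in Snord47 and Snord87. The ratios of these snoRNA counts to their host's counts overlapped between wild-type-Snai1 and empty-vector libraries, with exact permutation p between 0.2 and 0.4 before adjustment and between 0.643 and 0.667 after it, over the 15 ratio comparisons made. With 3 libraries against 3 no such p can be below 0.1. Snora73a in Snhg3 averaged 2.41 ± 0.401 CPM in wild-type-Snai1 cells and 2.33 ± 0.242 CPM in empty-vector cells (SD, n = 3 each), more than Snhg3 itself at 0.166 ± 0.0303 and 0.272 ± 0.0969 CPM. Snora73b, a near-identical copy whose reads may not be separable from those of Snora73a, was listed at 0 in every library. So was Snora24, which lies inside the counted span of Snhg8.

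Summed over all snoRNA rows the level was 143, 141 and 160 CPM in the mutant-Snai1 libraries, 97.9, 162 and 154 CPM in the wild-type-Snai1 libraries, and 141, 134 and 145 CPM in the empty-vector libraries. Wild-type replicate 1 was the lowest of the 9. The mean of the wild-type group was 138 CPM with this library and 158 CPM without it, so the group lay below or above the empty-vector mean of 140 CPM depending on 1 library. It also had the lowest wild-type value of each snoRNA ratio above, and its part in them was not tested.

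**Figure D4:**
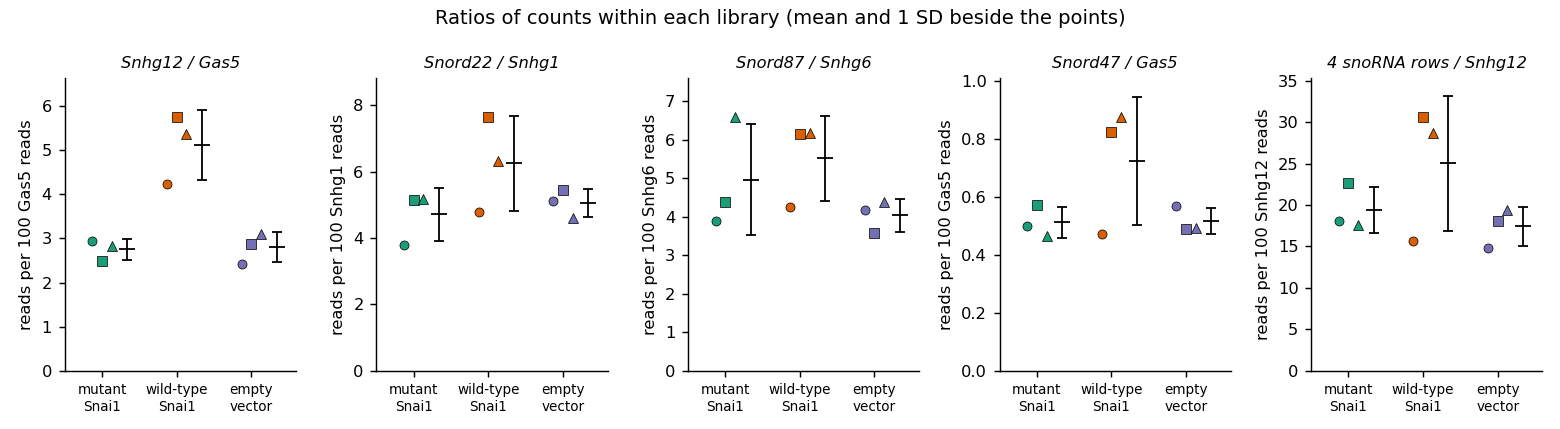
Counts of Snhg12 per 100 counts of Gas5, and of snoRNA rows per 100 counts of their host, in every library, with the mean and 1 SD (n = 3) beside the points and each axis from 0. The Snhg12 to Gas5 ratio is between 4.24 and 5.77 in wild-type-Snai1 libraries and at most 3.11 elsewhere, while the snoRNA ratios overlap between groups.

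The genes beside the host genes did not share a single course. Zbtb37, on the opposite strand, has a span that reaches the start of Gas5, and it did not pass the test in wild-type-Snai1 against empty-vector cells (log2 fold change -0.05, SE 0.11; edgeR adjusted p = 0.734). The kit keeps the strand, but the strand setting of the authors' counting was not given in the sources used here, so reads from genes that overlap on opposite strands cannot be told apart with certainty.

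Slc3a2, a heavy chain of amino acid transporters, starts 118 bases from Snhg1 on the opposite strand and rose where Snhg1 fell. It averaged 638 ± 14.3 CPM in wild-type-Snai1 cells and 550 ± 17.3 CPM in empty-vector cells (SD, n = 3 each), a log2 fold change of 0.21 (SE 0.06; edgeR adjusted p = 0.0109). Of the other neighbours of Snhg1, Snhg3, Snhg5 and Snhg12, Wdr74, Rcc1, Syncrip and Trnau1ap did not pass the test, with log2 fold changes between -0.01 and 0.14, while Phactr4, 2236 bases from Snhg3, fell by 0.39 on the log2 scale (SE 0.06; edgeR adjusted p = 0.000441). Cenpl, 32228 bases beyond Gas5, rose by 0.27 (SE 0.09; edgeR adjusted p = 0.0332). With both libraries that stood apart left out the values were 0.16 in Slc3a2, -0.47 in Phactr4 and 0.35 in Cenpl, all still called. Mcmdc2, which overlaps Snhg6 on the opposite strand, had 0 or 1 count in every library. Prss12, Sgk3, Tcf24, Rab42 and Serpinc1 were too low to test.

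The wider family was read from a list of 17 other non-coding snoRNA host genes. Of these 10 were tested, and in wild-type-Snai1 against empty-vector cells 4 fell and 0 rose, with a median log2 fold change of -0.28 against -0.00 over all tested genes. Of all tested genes 24.3% were called lower and 25.2% higher, 49.4% in all, so the share of this list that was called is not above that background. Without both libraries that stood apart 4 fell and 1 rose, with a median of -0.16, where 28.7% of all tested genes were called lower and 28% higher. Snhg7 stood at 10.9 ± 1.13 CPM in wild-type-Snai1 cells and 22.9 ± 0.861 CPM in empty-vector cells (SD, n = 3 each), a log2 fold change of -1.07 (SE 0.09; edgeR adjusted p = 7.74e-06). Zfas1 stood at 93.4 ± 18.6 CPM in wild-type-Snai1 cells and 173 ± 16.6 CPM in empty-vector cells, a change of -0.89 (SE 0.14; edgeR adjusted p = 0.000502). Epb41l4aos fell by 0.83 (SE 0.15; edgeR adjusted p = 0.00116) and Snhg17 by 0.46 (SE 0.15; edgeR adjusted p = 0.028) on the log2 scale. The 4 genes were called higher in mutant-Snai1 against wild-type-Snai1 cells, where 23.4% of all tested genes were. In mutant-Snai1 against empty-vector cells 0 of the 10 was called, beside 0.00801% of all tested genes. Snhg9, Snhg11, Snhg14, Snhg18, Meg3, Rian and Mirg had too few counts.

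Protein-coding host genes, many of them ribosomal proteins, were also mostly lower where called. Of 33 tested, 14 fell and 3 rose in wild-type-Snai1 against empty-vector cells, with a median log2 fold change of -0.25, beside 24.3% of all tested genes called lower and 25.2% higher. Without both libraries that stood apart 14 fell and 5 rose, with a median of -0.15, beside 28.7% and 28% of all tested genes. Rps20, of the small ribosomal subunit, fell by 0.55 (SE 0.06; edgeR adjusted p = 5.64e-05) and Rpsa by 0.48 (SE 0.06; edgeR adjusted p = 6.13e-05). Hspa8, a constitutive heat shock chaperone, rose by 0.49 (SE 0.05; edgeR adjusted p = 2.79e-05). In mutant-Snai1 against wild-type-Snai1 cells 13 of the 33 were higher and 1 lower, beside 23.4% and 24.5% of all tested genes. In mutant-Snai1 against empty-vector cells 0 were called, beside 0.00801% of all tested genes. Hspa8 was called there with both libraries that stood apart left out (log2 fold change 0.28, edgeR adjusted p = 0.032), beside 0.23% of all tested genes. Ribosomal protein genes and Hspa8 have many processed pseudogenes, so their counts are uncertain.

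The list of 25 translation genes with TOP mRNAs had 16 lower and 0 higher in wild-type-Snai1 against empty-vector cells, with a median log2 fold change of -0.26, beside 24.3% of all tested genes called lower and 25.2% higher. With both libraries that stood apart left out 16 were lower and 2 higher, with a median of -0.25, beside 28.7% and 28% of all tested genes. Besides Rps20, the translation elongation factors Eef1a1 and Eef1b2 fell by 0.59 (SE 0.08; edgeR adjusted p = 0.000231) and 0.45 (SE 0.07; edgeR adjusted p = 0.000537). In mutant-Snai1 against wild-type-Snai1 cells 13 were higher and 0 lower, beside 23.4% and 24.5% of all tested genes. In mutant-Snai1 against empty-vector cells 0 were called, beside 0.00801% of all tested genes. The medians of both lists were nearer to 0 than that of the 6 host genes, a difference for which no test was made. Some genes stand in both lists.

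In the fit of all 9 libraries, genes that make or remove these RNAs were called no more often than all tested genes. Of the latter 49.4% were called in wild-type-Snai1 against empty-vector cells. Of 18 tested genes for the core and the assembly of snoRNA-protein particles, 3 rose and 1 fell in that comparison, with a median log2 fold change of -0.01, and without both libraries that stood apart 5 rose and 1 fell. Pih1d1, an assembly factor, rose by 0.32 (SE 0.08; edgeR adjusted p = 0.00602), Dkc1, the pseudouridine synthase of H/ACA particles, by 0.16 (SE 0.05; edgeR adjusted p = 0.0159), and Nolc1, a nucleolar chaperone of the particles, by 0.28 (SE 0.10; edgeR adjusted p = 0.0456). Of 17 tested factors of nonsense-mediated decay, 4 rose and 4 fell, with a median of 0.06. Without both libraries that stood apart 8 of the 17 rose and 4 fell, a larger share than the 56.8% of all tested genes called there. Upf3b, which links exon junctions to decay, fell by 0.43 (SE 0.06; edgeR adjusted p = 0.000127), the endonuclease Smg6 fell by 0.49 (SE 0.08; edgeR adjusted p = 0.000369), and the release factor Gspt1 rose by 0.27 (SE 0.06; edgeR adjusted p = 0.00229). None of either list was called in mutant-Snai1 against empty-vector cells, where 0.00801% of all tested genes were.

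**Figure D5:**
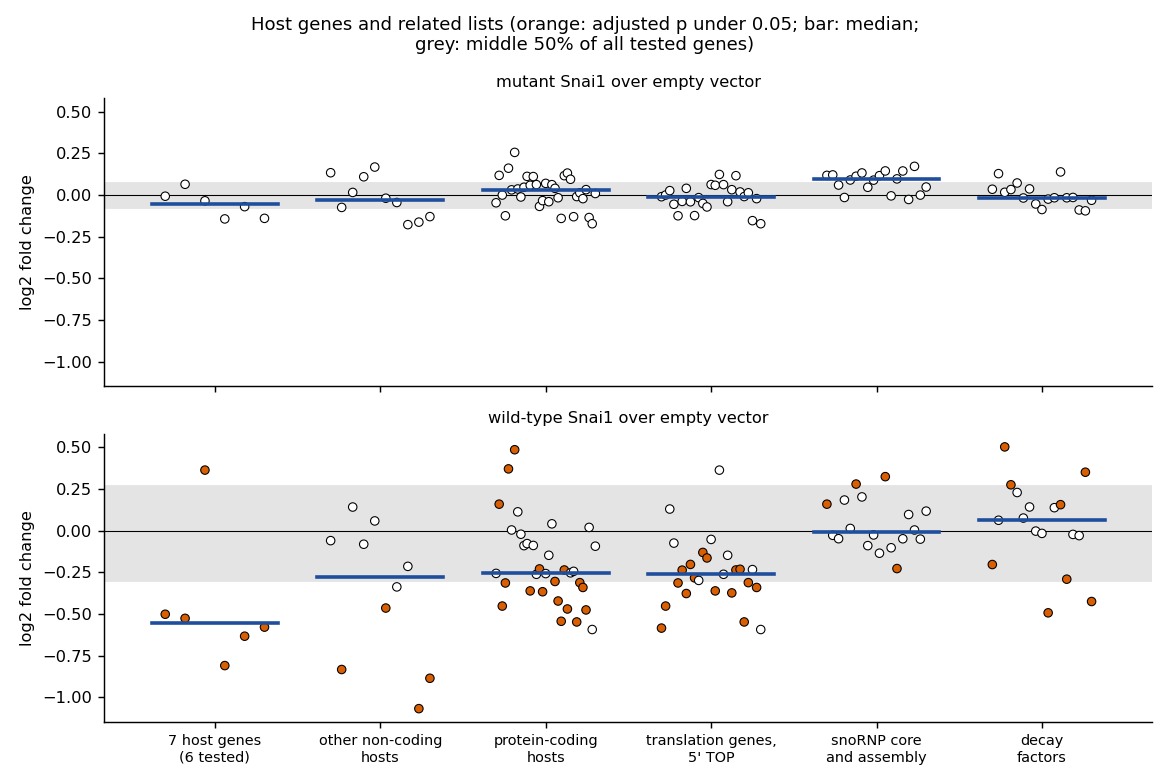
Log2 fold changes of the tested genes of 6 lists in mutant-Snai1 (top) and wild-type-Snai1 cells (bottom) against empty-vector cells; orange points have an edgeR adjusted p under 0.05, blue bars are list medians and the grey band is the middle 50% of all tested genes. In the lower panel the host genes have a median of -0.55 and the other non-coding hosts of -0.28. No point is orange in the upper panel, a comparison in which 0.00801% of all tested genes were called.

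Gas5 is known to follow the growth state of cells, so 2 lists of growth genes are given, neither of them called more often than the 49.4% of all tested genes. Of 20 proliferation genes 6 rose and 2 fell in wild-type-Snai1 against empty-vector cells, among them Rrm2, a ribonucleotide reductase subunit, which rose by 0.49 (SE 0.07; edgeR adjusted p = 0.000244), Mcm7, of the replicative helicase, which fell by 0.31 (SE 0.05; edgeR adjusted p = 0.000596), and the sliding clamp Pcna, which rose by 0.29 (SE 0.07; edgeR adjusted p = 0.00496). Of 19 genes of the mTOR pathway, which controls translation of TOP mRNAs, 3 rose and 3 fell. In the fit without both libraries that stood apart 9 proliferation genes rose and 2 fell, and 3 genes of the mTOR list rose and 7 fell. Of all tested genes 28% were called higher and 28.7% lower in that fit, 56.8% in all. The following values are from the fit of all 9 libraries. Ddit4, an inhibitor of the pathway, rose by 1.28 (SE 0.11; edgeR adjusted p = 6.03e-06), its activator Rheb rose by 0.65 (SE 0.12; edgeR adjusted p = 0.00152), and Sesn3, another inhibitor, fell by 0.81 (SE 0.12; edgeR adjusted p = 0.000279). Neither list had a call in mutant-Snai1 against empty-vector cells, where 0.00801% of all tested genes were called.

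Markers of mature blood cells also differed in the wild-type-Snai1 libraries, though for some of them a rise was fixed by the filter on low counts, as given below. In wild-type-Snai1 against empty-vector cells 25.2% of all tested genes were called higher and 24.3% lower. Of 8 monocyte and macrophage markers 6 rose and 2 fell in that comparison. Their sums were 74.5 to 84.6 CPM in mutant-Snai1 cells, 250.02 to 401 in wild-type-Snai1 cells and 82.7 to 99.9 in empty-vector cells. Ly6c2 was at 0 in the mutant and empty-vector groups. Of 8 neutrophil markers 4 were tested and 3 rose. All 8 summed to 2.50 to 4.64 CPM in mutant-Snai1 cells, 73.1 to 171 in wild-type-Snai1 cells and 2.98 to 3.22 in empty-vector cells. In both the mutant and empty-vector groups 4 of the 8 were at 0. A marker near 0 in both groups, such as Ly6c2 above, could enter the test only through the wild-type group. The rise of such a marker was therefore fixed by the filter on low counts. Of 8 erythroid markers 6 were tested and 5 fell, with sums between 759 and 859 CPM in mutant-Snai1 cells, 463 and 681 CPM in wild-type-Snai1 cells and 756 and 773 CPM in empty-vector cells. Mast cell markers had 1 call in each direction among 3 tested, and of the 6 stromal markers only Pdgfrb was tested, which was lower. In the fit without both libraries that stood apart 6 monocyte and macrophage markers rose and 1 fell, 3 neutrophil markers rose, and 5 erythroid markers fell. Of all tested genes 28% were called higher and 28.7% lower in that fit. The part of these cell states in the host gene levels was not tested.

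The 7 genes were averaged into 1 profile, each gene centred on its own mean of log2 CPM. The profile was -0.01, -0.03 and 0.23 in the mutant-Snai1 libraries, -0.32, -0.23 and -0.22 in the wild-type-Snai1 libraries, and 0.21, 0.25 and 0.12 in the empty-vector libraries. It includes Snhg3, which had only 2 to 7 counts a library. Over the 6 tested members alone, a setting chosen after seeing the data, the group means were 0.11 in mutant-Snai1, -0.28 in wild-type-Snai1 and 0.17 in empty-vector cells, against 0.06, -0.26 and 0.19 over all 7. Snhg8 and Gas5 lay nearest to it, with mean absolute differences over the 9 libraries of 0.0867 and 0.0887, and Snhg3 and Snhg12 lay farthest, with 0.271 and 0.339. Among the 4457 tested genes with at least as large a span between group means, the 5 most like the profile were Tstd3 (0.0593), Cdk5rap1 (0.0616), Asnsd1 (0.0641), Igbp1 (0.0641) and Cmas (0.0661). Their log2 fold changes of wild-type-Snai1 over empty-vector cells lay between -0.45 for Tstd3 and -0.53 for Igbp1. With the profile of the 6 tested members Tstd3, Cdk5rap1 and Asnsd1 were again among the nearest 5, and Igbp1 and Cmas were not. This likeness is a description over 9 libraries of 3 groups and carries no test.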

How the data were processed

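RNA was sequenced from 9 HPC7 libraries in 3 groups of 3, from TruSeq stranded mRNA kits per the labels' protocols. The authors deposited raw counts for each gene. The submitters' processing notes name featureCounts, the mm10 build, limma 3.29.12 and edgeR 3.15.0. No aligner, annotation or strand setting was given in the sources used here. There were 0 columns of other samples. Of 27179 identifiers 25275 received a symbol from RefSeq, and gene strands came from GENCODE.

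Counts were tested in R 4.3.3 with edgeR 4.0.16: filterByExpr, TMM scaling, 1 robust quasi-likelihood fit of all 9 libraries, and Benjamini-Hochberg adjustment over 12484 tested genes, called under 0.05. The steps were tested on simulated counts. CPM use the TMM-scaled size and TPM the deposited lengths. Log2 CPM profiles used a prior count of 2. Intervals are at 95%.

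Libraries totalled 18332451 to 20860314 counts, and low members such as Snhg3 are limited by counting error. Same-numbered libraries were not paired. Alternatives were other scalings, DESeq2 1.42.0, no filter, 2 groups only, a replicate block and leaving out libraries. Named genes were all 7 members, their annotated neighbours where reported, up to 3 genes per list with the smallest adjusted p of wild-type Snai1 against empty vector, and the 5 genes most like the mean profile. Snora43, Snord49a, Snord69 and Snhg17 were named after their values were seen. Members and lists were chosen with earlier results of these data known. A neighbouring gene is not reported here.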

Additional observations from a re-analysis of the deposited data

How the results depend on the processing

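Over 17 alternatives for each comparison, Gas5, Snhg1, Snhg5, Snhg6 and Snhg8 kept their direction and stayed past the threshold in wild-type-Snai1 against empty-vector cells and in mutant-Snai1 against wild-type-Snai1 cells. In wild-type-Snai1 against empty-vector cells their log2 fold changes ran between -0.91 and -0.45 over these settings. Members called numbered between 5 and 6 with libraries left out in both comparisons. Snhg12 was the member lost.

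In mutant-Snai1 against empty-vector cells 0 members were called under all 17, and log2 fold changes near 0 changed sign. That of Gas5 became 0.0134 with library totals alone, 0.0655 without mutant replicate 1, 0.0173 without empty-vector replicate 1 and 0.0173 without both libraries that stood apart, a setting chosen after seeing the data. That of Snhg12 became 0.00606 without mutant replicate 2 and 0.0222 without empty-vector replicate 3, and that of Snhg1 became -0.0143 without mutant replicate 3. With a library left out they ran between -0.0541 and 0.0655 in Gas5, -0.106 and 0.0222 in Snhg12 and -0.0143 and 0.15 in Snhg1. All genes called there numbered 1 in the reported fit, 10 with DESeq2, 30 with only both groups fitted, 29 without both libraries that stood apart, and between 1 and 62 with a library left out. The cause was not tested.

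Same-numbered libraries did not deviate together: correlations ran between -0.09 and 0.21, with 2 of 9 pairs over 0.1 and 4 of 9 libraries closest to their own number. With the replicate block 1, 5886 and 5732 genes and 0, 6 and 6 members were called in mutant-Snai1 against empty-vector, wild-type-Snai1 against empty-vector and mutant-Snai1 against wild-type-Snai1 cells. Depth limits Snhg3 and the snoRNA rows.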
